A study of Mus musculus with 28 samples.

Results

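Small nucleolar RNAs (snoRNAs) were followed across age in 4 tissues of female C57BL/6J mice. The genes were taken by symbol: every gene whose platform symbol begins with Snord, Snora or Scarna and a number, that had a probe set with that symbol alone in both deposited expression tables. Of the 18974 genes present in both tables, 34 met this rule, namely 19 box C/D genes (Snord), 13 box H/ACA genes (Snora) and 2 genes of small Cajal body RNAs (Scarna). Where a gene had several probe sets, the one with the highest mean over the arrays of a table stood for it. The genes were thus chosen by symbol, by presence in both tables and by probe set mean, a measured value that takes both ages together, and not by the difference between ages. The set was nonetheless proposed with earlier results of these data in view, so counts over it are given as descriptions.

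The snoRNAs are short, stable noncoding RNAs of the nucleolus, the compartment in which ribosomal RNA (rRNA) is made. Box C/D snoRNAs guide fibrillarin to sites of ribose methylation in rRNA, and box H/ACA snoRNAs guide dyskerin to uridines that become pseudouridine. A few, such as Snord118 (U8), the U14 family to which Snord14e belongs, and Snora73a and Snora73b (U17), take part in cutting the rRNA precursor. Small Cajal body RNAs guide the same 2 kinds of modification on spliceosomal RNAs. In mammals most snoRNAs are cut out of introns of other genes, many of them ribosomal protein or translation factor genes, or long noncoding RNAs of the Snhg kind whose spliced product has little coding content.

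Total RNA from liver, quadriceps muscle, heart and gastrocnemius muscle was compared between mice killed at 24 weeks (6 months) and at 103 weeks (24 months), all on standard chow and fasted overnight. The labels give the strain C57BL/6J and female sex for every group, with no allele or agent, so age is the labelled difference between the groups of a tissue. Liver and quadriceps were measured on 1 array platform with 3 arrays per age, and heart and gastrocnemius on another with 4 per age, 28 arrays in all. The labels do not say whether each array held a separate animal, whether tissues came from the same animals, or whether RNA was pooled, so each p-value rests on the spread between the arrays of a group, which may be technical only. The number of arrays limits the precision, and values were compared between tissues within a platform only.

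Each tissue's own marker genes were high. The 5 hepatocyte markers averaged 13.75 to 13.85 (log2) in the liver arrays, and the 5 skeletal muscle markers 13.63 to 13.76 in quadriceps and 13.12 to 13.29 in gastrocnemius. The 4 cardiomyocyte markers measured averaged 12.27 to 12.32 in heart. Hepatocyte markers also read in quadriceps, with array means of 7.17 to 7.67 at 6 months and 6.17 to 9.23 at 24 months, and the albumin gene Alb there read 10.04 ± 0.46 and 9.36 ± 2.26 (SD, n = 3 each). Their part in the quadriceps snoRNA values was not tested. In bulk tissue, fewer cells of a type and less RNA per cell cannot be told apart.

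By position in RefSeq, 33 of the 34 snoRNA genes lay inside a larger gene, a protein-coding gene for 24 of them and a long noncoding RNA gene for 9. The strand was not used, because the gene table gives none, so the larger gene is called the enclosing gene and not the host. Snord118 lay in no larger gene. Of the 33, 8 examples show the range: Snord35a lay in Rpl13a, Snord16a in Rpl4, Snora21 in Rpl23, Snora7a in Rpl32, Snord37 in Eef2, Snord14e in Hspa8, Snord61 in Rbmx and Snora16a in Snhg12. Snord82 and Snora75 both lay in Ncl, the gene of nucleolin, and Snord49a and Snord49b both lay in 2410006H16Rik, a long noncoding RNA gene. The snoRNA genes measured 45 to 205 bases by the RefSeq spans. Their own sequences were not analysed here.

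Because an intronic snoRNA on the strand of its enclosing gene is transcribed from that gene's start, the bases around the start of 4 enclosing genes are shown, each with 60 bases before and 20 bases from the RefSeq start, on the strand of the gene. They were chosen because they enclose members described further on (Snord49a and Snord49b, Snord16a, Snord35a and Snora16a) and carry CTTTC, printed in capitals, near the start. Genes of the translation machinery often begin transcription in a run of pyrimidines, and CTTTC is a run of such bases. It does not always stand at the RefSeq start itself, as it lies before the start in Rpl4 and past it in Rpl13a.
2410006H16Rik: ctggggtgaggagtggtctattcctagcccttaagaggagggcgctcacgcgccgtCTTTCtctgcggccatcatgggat
Rpl4: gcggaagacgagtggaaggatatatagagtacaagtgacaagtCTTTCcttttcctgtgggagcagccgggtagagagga
Rpl13a: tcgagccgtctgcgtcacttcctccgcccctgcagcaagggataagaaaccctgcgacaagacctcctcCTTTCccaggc
Snhg12: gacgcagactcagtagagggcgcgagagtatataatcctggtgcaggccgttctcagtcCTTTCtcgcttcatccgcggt
The windows lie in GRCm38.p6 at chr11:62602817-62602896 on the plus strand, chr9:64173327-64173406 on the plus strand, chr7:45128726-45128805 on the minus strand and chr4:132308618-132308697 on the plus strand. Promoters of 20 enclosing genes were in the RefSeq promoter table, and 5 of them (25%) held CTTTC on either strand within 20 bases of the start. The same letters stood in the same window of 3336 of all 32851 promoters of the table (10.2%). On the printed strand the letters stood in 4 of the 20, which are those shown, and in 5.49% of all promoters. The letters were chosen after the sequences were read, so these shares are no test, and a match of letters is a description of the sequence.

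No snoRNA gene passed an adjusted p of 0.05 with age in any tissue (limma over all genes of a table, Benjamini-Hochberg adjustment): 0 of 34 were called in liver, quadriceps, heart and gastrocnemius alike. Calls were rare among all genes too, at 0.326% in liver, 0.00502% in quadriceps, 0.00665% in heart and 0.00998% in gastrocnemius. The direction of the estimates nevertheless differed by tissue. In liver 29 of 34 differences lay below 0, with a median of -0.18 (log2), whereas 45.6% of all genes lay below 0. In gastrocnemius 31 of 34 lay below 0, with a median of -0.28, against 44.2% of all genes. In heart 28 of 34 lay above 0, with a median of 0.15, against 56.6% of all genes, and in quadriceps 21 of 34 lay above 0, with a median of 0.06, against 52.4%. The median over all genes was between 0.01 and 0.03 in each tissue.

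**Figure D1:**
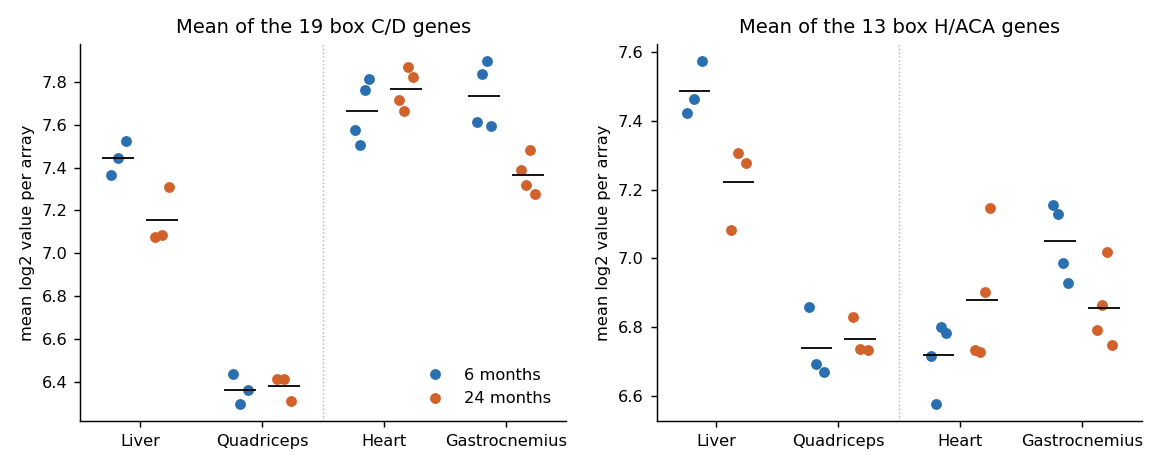
Mean log2 value per array over the 19 box C/D genes (left) and the 13 box H/ACA genes (right), for each tissue, at 6 months (blue) and 24 months (orange); points are arrays, bars are group means, and the dotted line separates the 2 array platforms. In liver the 3 old arrays lie below the 3 young arrays in both classes, and in gastrocnemius the box C/D means of the 4 old arrays (7.28 to 7.48) lie below those of the 4 young arrays (7.60 to 7.90).

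At an unadjusted p under 0.05, a looser threshold used here only to describe, 11 members passed in liver, all lower at 24 months, while 14.4% of all genes were lower by this rule. In gastrocnemius 19 were lower and 1 was higher, where 9.05% of all genes were lower and 7.44% higher. In heart 6 were higher and 1 was lower, where 3.89% of all genes were higher and 2.1% lower. In quadriceps 2 were higher and 2 were lower, where 3.8% of all genes were higher and 3.26% lower. The standard error of a member's age difference had a median of 0.11 in heart and in gastrocnemius, wider than the 0.06 and 0.07 of all genes. In liver it was 0.11 against 0.10, and in quadriceps 0.10 against 0.08.

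**Figure D2:**
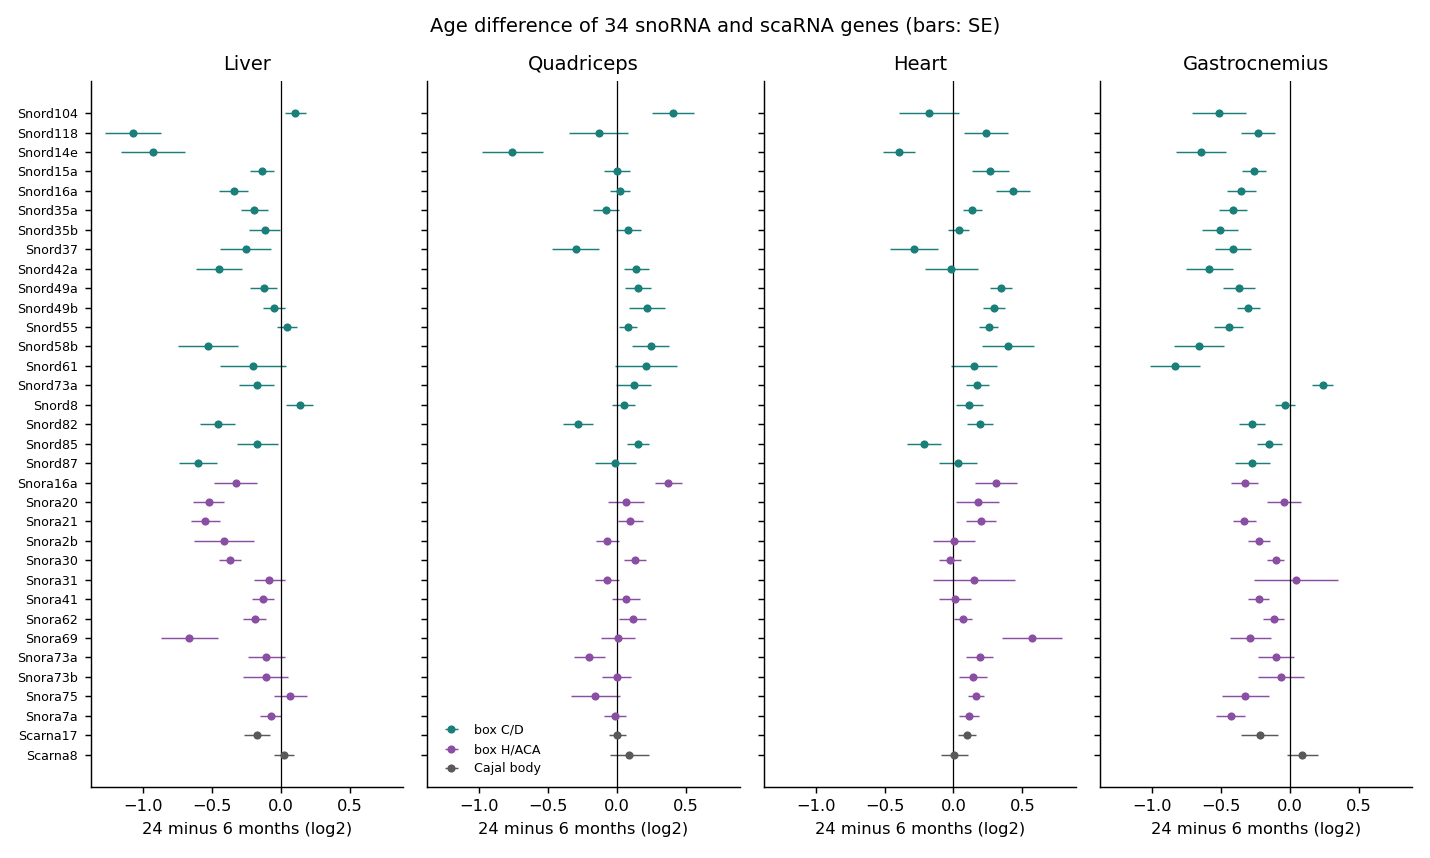
Age difference (24 minus 6 months, log2) of each of the 34 genes in each tissue; points are limma estimates, bars are standard errors, and colours mark box C/D, box H/ACA and Cajal body genes. Most points lie left of 0 in liver (29 of 34) and gastrocnemius (31 of 34) and right of 0 in heart (28 of 34).

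In liver, Snord118 (U8), which is needed to process the precursor of the large-subunit rRNAs, had the smallest p of all members. It read 8.09, 8.27 and 8.87 in the 3 young livers and 7.65, 7.19 and 7.17 in the 3 old livers. The groups did not overlap; the means were 8.41 ± 0.41 and 7.34 ± 0.27 (SD, n = 3 each), a difference of -1.07 (SE 0.20, limma adjusted p = 0.0543). The difference corresponds to a 2.10-fold lower value. Snord118 had 2 probe sets with identical values on this platform, so they are no independent check of each other.

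Another 3 box C/D genes were named for liver by smallest p. Snord14e, a U14 gene inside Hspa8, read 9.91, 9.33 and 9.96 in young livers and 8.30, 9.02 and 9.10 in old livers, a difference of -0.93 (SE 0.23, limma adjusted p = 0.0584). Snord87, inside Snhg6, read 5.30, 5.43 and 5.30 against 4.60, 4.55 and 5.08, a difference of -0.60 (SE 0.14). These values are low, and its mean level on this platform lay above only 11.1% of genes. Snord82, inside the nucleolin gene, read 10.82, 10.84 and 10.79 against 10.17, 10.23 and 10.68, a difference of -0.46 (SE 0.13). In all 3 the old arrays lay below the young arrays, and replicate 3 was the old array nearest to the young ones. In Snord14e replicate 3 (9.10) was close to replicate 2 (9.02). Groups with no overlap were common in liver: 17.4% of all genes had every old array below every young array.

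Among the box H/ACA genes of liver, Snora21, inside Rpl23, read 6.82, 6.78 and 7.12 at 6 months and 6.30, 6.31 and 6.47 at 24 months, a difference of -0.55 (SE 0.11, limma adjusted p = 0.0543). Snora30, inside Srcap, read 7.91, 8.01 and 7.93 against 7.54, 7.68 and 7.52, a difference of -0.37 (SE 0.08). Snora20, inside the chaperonin gene Tcp1, read 7.43, 7.15 and 7.37 against 6.66, 6.72 and 7.0, a difference of -0.52 (SE 0.12). These 3 genes did not overlap between ages. Snora69, inside Rpl39, differed by -0.66 (SE 0.21), but its highest old array (6.89) met its lowest young array (6.89). Scarna17 read 10.57, 10.77 and 10.83 against 10.54, 10.66 and 10.46, a difference of -0.17 (SE 0.10), and the groups overlapped. The 5 liver members above 0 were Snord8, Snord104, Snora75, Snord55 and Scarna8, with differences between 0.02 and 0.14.

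The liver count depended on the 24-month liver replicate 3 and on the form of the fit. Without that array 12 of 34 members passed the adjusted threshold, all lower at 24 months, but 25.5% of all genes passed as well (11.1% lower). A fit with array weights called 15 members, where 39.6% of all genes passed (17.6% lower). The spread of values within an array moved with age in liver: the interquartile range over all genes was 2.64 to 2.70 in the young arrays and 2.27, 2.34 and 2.54 in the old arrays, replicate 3 being the widest of these. All genes were split into 4 equal bins by level. From the lowest bin to the highest, their median age differences were 0.12, 0.17, -0.06 and -0.12. Members lay mostly below 0 in each bin, in 5 of 6, 7 of 8, 8 of 10 and 9 of 10 from the lowest to the highest. With quantile normalization, which makes the spread of all arrays equal, the members' median was -0.27, with 26 of 34 below 0 and 0 called. Markers of other cells moved with age in the same arrays. All 6 T and NK cell markers were above 0 (median 0.31, array means 5.87 to 6.10 young and 6.16 to 6.56 old). The mean of the 4 exocrine pancreas markers reached 9.18 in an old array against 6.39 to 6.41 in the young. All 5 skeletal muscle markers also lay above 0 (array means 5.95 to 6.03 young and 6.20 to 6.38 old). So did all 5 cardiomyocyte, all 4 neutrophil and all 4 adipocyte markers. All 5 hepatocyte and all 3 endothelial markers lay below 0, as did Alas2 (-0.21). Macrophage, fibroblast and B and plasma cell markers divided. The part of all these markers in the snoRNA values was not tested.

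In quadriceps, differences of the 34 members ran from -0.76 to 0.41. Snora16a, inside the long noncoding RNA gene Snhg12, read 7.64, 7.68 and 7.75 in young and 7.85, 8.17 and 8.17 in old muscle, a difference of 0.37 (SE 0.10, limma adjusted p = 0.567). Snord14e read 7.66, 7.18 and 8.20 against 6.74, 6.97 and 7.05, a difference of -0.76 (SE 0.22). Snord104, inside the noncoding gene Gm36220, read 9.98, 9.98 and 9.72 against 10.17, 10.67 and 10.06, a difference of 0.41 (SE 0.16). Groups did not overlap in these 3 genes, nor in Snord82 (difference -0.28). The other named genes overlapped between ages: Snord85 differed by 0.15, Snora73a by -0.20, Snora30 by 0.13, Snora62 by 0.11 and Scarna8 by 0.09. In all genes, 12% had groups with no overlap.

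In heart, 4 box C/D genes were named by smallest p, and each had its old mean above its young mean. Snord49a read 8.41, 8.54, 8.34 and 8.65 at 6 months and 9.0, 8.75, 8.77 and 8.79 at 24 months, a difference of 0.34 (SE 0.08, limma adjusted p = 0.379). Snord49b, of the same enclosing gene, read 9.84, 9.98, 10.23 and 10.13 against 10.31, 10.33, 10.39 and 10.32, a difference of 0.29 (SE 0.08). Neither gene overlapped between ages. Snord16a, inside Rpl4, read 8.82, 8.79, 9.32 and 9.25 against 9.40, 9.39, 9.51 and 9.60, a difference of 0.43 (SE 0.12), also without overlap. Snord55 read 10.50, 10.56, 10.71 and 10.56 against 10.90, 10.87, 10.90 and 10.68, a difference of 0.26 (SE 0.07), and overlapped through old replicate 4. Groups with every old array above every young array made up 1.94% of all genes.

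The box H/ACA genes named for heart were Snora75 (difference 0.16), Snora69 (0.57), Snora16a (0.31) and Snora73a (0.19). Snora69 had the widest range, at 5.33, 5.25, 6.12 and 5.90 in young hearts and 5.93, 5.93, 6.44 and 6.57 in old hearts. Each of the 4 overlapped between ages, as did Scarna17 (0.10). In heart the mean over all members was lower in replicates 1 and 2 than in replicates 3 and 4 at both ages: 7.23 and 7.13 against 7.36 and 7.39 at 6 months, and 7.32 and 7.28 against 7.46 and 7.53 at 24 months. The labels give no batch for these arrays, and the part of this split in the age values was not tested. Hepatocyte markers moved with age in heart: 5 of 5 lay below 0 (median -0.30; array means 5.45 to 6.80 young and 5.07 to 5.39 old), and Alb read 7.44 ± 1.61 in young and 5.12 ± 0.28 in old hearts (SD, n = 4 each). Their part in the snoRNA values was not tested. Snord14e was again on the other side of 0, with 8.73, 8.14, 8.64 and 8.38 in young and 8.0, 8.17, 8.04 and 8.10 in old hearts, a difference of -0.40 (SE 0.12).

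In gastrocnemius the box C/D genes had a median difference of -0.37 and the box H/ACA genes one of -0.23. Snord61, inside Rbmx, read 8.92, 9.59, 9.79 and 9.24 at 6 months and 8.67, 8.78, 8.53 and 8.23 at 24 months, a difference of -0.83 (SE 0.18, limma adjusted p = 0.108) or 1.78-fold. Snord55 read 10.54, 10.85, 10.85 and 10.59 against 10.34, 10.33, 10.38 and 10, a difference of -0.45 (SE 0.10). Snord35a, of the Rpl13a locus whose snoRNAs are known from the response to lipotoxic stress, read 8.74, 9.13, 9.13 and 8.86 against 8.56, 8.54, 8.70 and 8.41, a difference of -0.41 (SE 0.10). None of these 3 genes overlapped between ages. Snord35b read 5.74, 6.16, 6.22 and 6.18 against 5.79, 5.28, 5.67 and 5.54, a difference of -0.51 (SE 0.13), and overlapped through young replicate 1. Every old array lay below every young array in 4.78% of all genes.

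Of the box H/ACA genes in gastrocnemius, Snora7a, inside Rpl32, read 7.72, 7.74, 7.36 and 7.54 in young and 7.12, 7.24, 7.33 and 6.95 in old muscle, a difference of -0.43 (SE 0.10, limma adjusted p = 0.120). Snora21 read 9.26, 9.57, 9.56 and 9.40 against 9.09, 9.15, 9.24 and 8.99, a difference of -0.33 (SE 0.08). Neither overlapped between ages. Snora16a read 9.73, 9.78, 9.78 and 9.51 against 9.43, 9.39, 9.56 and 9.11, a difference of -0.33, with overlap. Snora41, inside Eef1b2, differed by -0.23 without overlap. Scarna17 differed by -0.22, with old replicate 4 (8.73) below the other arrays (9.10 to 9.49). The 3 members above 0 were Snord73a (0.24), Scarna8 (0.09) and Snora31 (0.045).

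Other values moved with the gastrocnemius ages. The interquartile range over all genes was 2.73 to 2.78 in the young arrays, 2.64 to 2.66 in old replicates 1, 2 and 4, and 2.78 in old replicate 3, and the members' mean was highest of the old arrays in replicate 3 (7.25, against 7.01 to 7.12). In 4 equal bins by level, all genes had median age differences of 0.05, 0.04, -0.003 and -0.06 from the lowest to the highest. The highest bin held 21 of the 34 members, 20 of them below 0, with a median of -0.33. With quantile normalization 30 of 34 members lay below 0, with a median of -0.26. All 3 endothelial markers lay below 0 (median -0.27; array means 8.11 to 8.58 young and 7.74 to 8.37 old). All 5 macrophage markers lay above 0 (6.05 to 6.09 young and 6.18 to 6.38 old), as did the 4 B and plasma cell markers measured (4.92 to 5.28 young and 5.26 to 6.19 old) and the 6 T and NK cell markers (median 0.12; 5.12 to 5.26 young and 5.07 to 5.81 old). Of the 3 fibroblast markers measured, Col1a1 (-0.51) and Col3a1 (-0.37) lay below 0 and Dcn (0.13) above it, with array means of 8.75 to 9.0 young and 8.54 to 8.68 old. The skeletal muscle markers lay below 0 except Myh4 (0.01), with Ckm at -0.18 and array means of 13.23 to 13.29 young and 13.12 to 13.22 old. Exocrine pancreas markers divided, with Amy2b at 0.60 and array means of 5.01 to 5.11 young and 5.17 to 5.29 old. The part of all these markers in the snoRNA values was not tested.

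The age differences of heart and gastrocnemius were set against each other in a model with tissue, age and their interaction. Of the 34 members, 3 passed the adjusted threshold, all box C/D genes and each higher in heart, where 0.595% of all genes passed in either direction and 0.489% passed with heart higher. Snord55 had age differences of 0.26 in heart and -0.45 in gastrocnemius, a difference of 0.70 (SE 0.13, limma adjusted p = 0.0311). Snord49b had 0.29 and -0.30, a difference of 0.60 (SE 0.12, adjusted p = 0.0412), and Snord49a had 0.34 and -0.37, a difference of 0.71 (SE 0.15, adjusted p = 0.0453). Snord16a (0.78, SE 0.17, adjusted p = 0.0544) and Snord35a (0.55, SE 0.13, adjusted p = 0.0686) did not pass. Over all members 31 of 34 interaction estimates lay above 0, with a median of 0.40, against 49.5% of all genes and a median of 0.00. The box C/D median was 0.53 and the box H/ACA median 0.24.

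**Figure D3:**
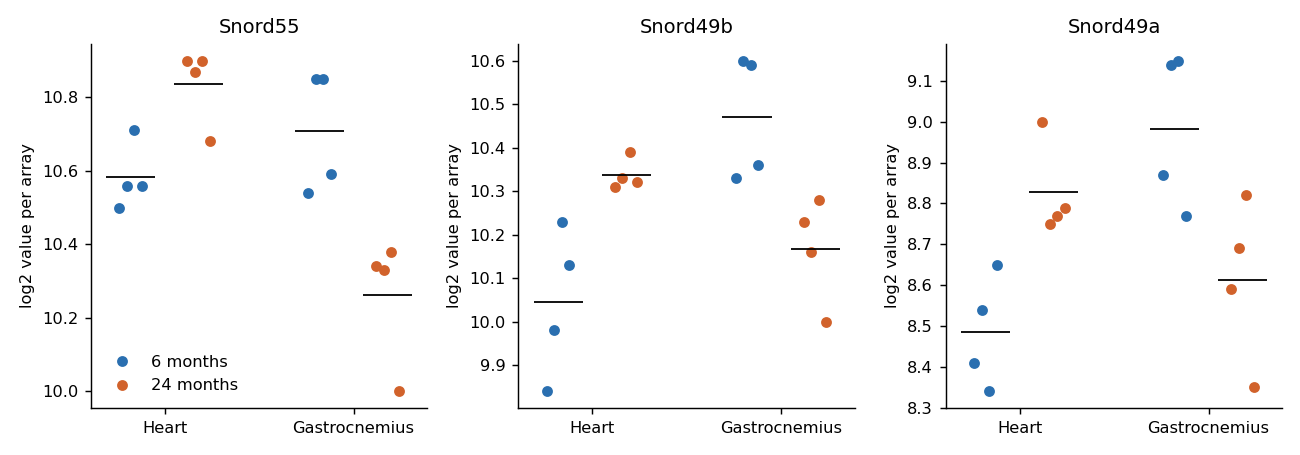
Log2 value per array of Snord55, Snord49b and Snord49a in heart and gastrocnemius at 6 months (blue) and 24 months (orange); points are 4 arrays per group and bars are group means. In each gene the old mean lies above the young mean in heart and below it in gastrocnemius.

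These 3 calls were sensitive to single arrays and to scaling. The count was 0 without heart 6-month replicate 1 or 2, heart 24-month replicate 1, 2 or 3, gastrocnemius 6-month replicate 2 or 3, or gastrocnemius 24-month replicate 2. It was 1 without gastrocnemius 24-month replicate 1 or 4, 2 without heart 24-month replicate 4, 7 without gastrocnemius 6-month replicate 1 and 8 without gastrocnemius 24-month replicate 3. Over 24 alternatives the adjusted p ran from 0.0111 to 0.0761 for Snord55, from 0.0199 to 0.102 for Snord49b and from 0.0199 to 0.107 for Snord49a. The estimates stayed above 0 throughout, at 0.57 to 0.76, 0.47 to 0.66 and 0.62 to 0.78.

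In the same model for liver and quadriceps, 0 of 34 members passed, where 0.0151% of all genes did. At an unadjusted p under 0.05, 11 members passed, each lower in liver, and 9.39% of all genes were lower by that rule. The smallest p-values belonged to 4 box H/ACA genes, Snora30 (-0.50, SE 0.11, limma adjusted p = 0.0894), Snora21 (-0.64), Snora16a (-0.70) and Snora20 (-0.59), followed by the box C/D gene Snord42a (-0.59). Without liver 24-month replicate 3, 9 members passed, each lower in liver, where 7.34% of all genes passed (3.37% lower).

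Set side by side over the 4 tissues, 22 of 34 members (64.7%) lay below 0 in liver and gastrocnemius and above 0 in heart, and 10.7% of the 18974 genes did. This pattern was put together from the directions given above, with 29 of 34 below 0 in liver, 31 in gastrocnemius and 28 above 0 in heart. Its count follows largely from those counts and is no separate result. Snord14e and Snord37 were the members below 0 in all 4 tissues, which 7.15% of genes also were. Snord14e had -0.93 in liver, -0.76 in quadriceps, -0.40 in heart and -0.65 in gastrocnemius. On the heart and gastrocnemius platform its only probe set has an identifier that marks it as unmapped. Hspa8, the constitutive heat shock cognate chaperone in which Snord14e lies, had -0.18, -0.07, 0.00 and -0.11. In gastrocnemius Hspa8 read 12.94, 13.07, 13.17 and 13.19 at 6 months and 13.08, 12.92, 12.95 and 13 at 24 months, with overlap, where Snord14e read 7.86, 8.0, 7.68 and 7.39 against 7.21, 6.6, 7.45 and 7.09. Snord37, inside the elongation factor gene Eef2, had -0.25, -0.30, -0.29 and -0.41. Scarna8 was the member above 0 in all 4 tissues, by 0.01 to 0.09.

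**Figure D4:**
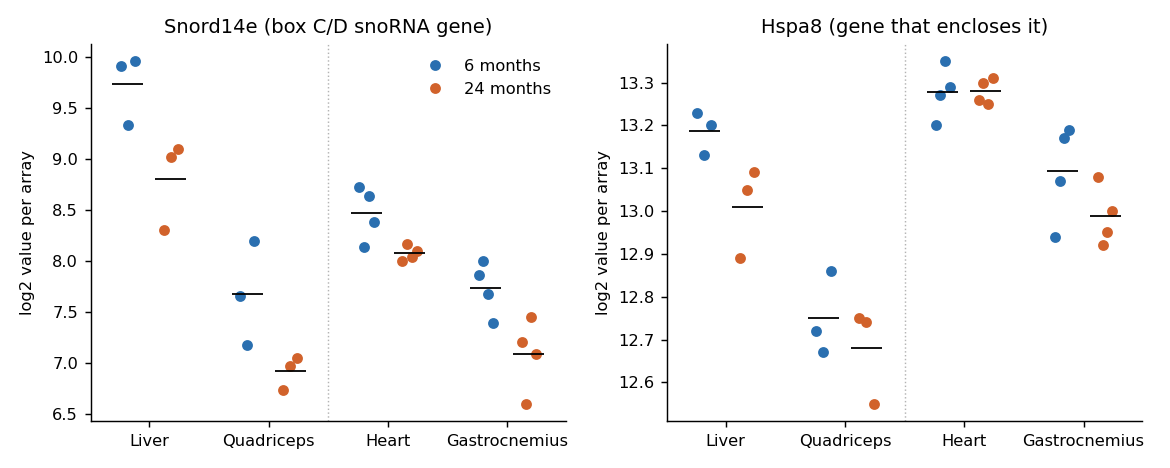
Log2 value per array of Snord14e (left) and of Hspa8, the gene that encloses it (right), in 4 tissues at 6 months (blue) and 24 months (orange); points are arrays, bars are group means, and the dotted line separates the 2 platforms. The old mean of Snord14e lies below the young mean in each tissue, by 0.40 to 0.93, while the means of Hspa8 differ by at most 0.18.

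Enclosing genes were measured for 17 snoRNA genes in each tissue (16 distinct genes), and none passed the adjusted threshold with age. The pairs were not all the same on the 2 platforms. Those of Snora21, Snord15a and Snord42a were in liver and quadriceps only, and those of Snora69, Snord8 and Snord87 in heart and gastrocnemius only. Their median difference was -0.12 in liver, 0.01 in quadriceps, -0.01 in heart and -0.07 in gastrocnemius. In gastrocnemius the snoRNA gene lay below its enclosing gene in 14 of 17 pairs and in heart above it in 14 of 17. In liver it lay below in 13 of 17 and in quadriceps in 8 of 17. The enclosing genes differed little with age by their medians. These counts thus follow largely from the member directions given above and are no separate result. The age differences of a pair had the same sign in 9 of 17 pairs in gastrocnemius, 9 in heart, 13 in liver and 8 in quadriceps. Snord61 had -0.83 in gastrocnemius and Rbmx, an RNA-binding protein gene, 0.13. Snord16a had 0.43 in heart and -0.35 in gastrocnemius, and Rpl4 had -0.08 and 0.08. Snord82 and Snora75 had -0.27 and -0.32 in gastrocnemius, and Ncl had 0.14. In liver, Ncl (-0.28) lay between Snord82 (-0.46) and Snora75 (0.07), and Rbmx (-0.70) lay below Snord61 (-0.20, SE 0.24). Snord61 read low on the liver and quadriceps platform, with a mean level above only 4.24% of genes. Values of a snoRNA gene and of its enclosing gene come from different probe sets, so their sizes are set side by side without a test.

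No gene of the protein machinery passed the adjusted threshold with age. In liver all 4 box C/D core proteins lay below 0 (Fbl, Nop56, Nop58 and Snu13; median -0.19), with Nop58, a scaffold of the particle, at -0.49 (SE 0.10, limma adjusted p = 0.0543). All 4 box H/ACA core proteins lay below 0 (Dkc1, Nop10, Nhp2 and Gar1; median -0.18), with dyskerin (Dkc1) at -0.29. So did all 5 Cajal body genes listed (median -0.28), 8 of 9 rRNA synthesis genes (-0.22), 12 of 13 exosome and trimming genes (-0.25) and 17 of 18 rRNA processing genes (-0.26), among them Pes1 at -0.41. Assembly factors divided as 7 below and 4 above 0. Of all genes in liver 45.6% lay below 0. By level, their medians were 0.12, 0.17, -0.06 and -0.12 from the lowest bin to the highest, and the lists were not matched for level. In gastrocnemius, where the snoRNA genes also lay mostly below 0, the rRNA processing genes had a median of 0.02, with 10 of 18 above 0. Of the 2 box C/D core genes measured there, Nop58 stood at 0.25 and Fbl at -0.025. Of the box H/ACA core, Dkc1 (0.06) and Gar1 (0.12) lay above 0, and Nop10 (-0.145) and Nhp2 (-0.047) below. The assembly factor, Cajal body, rRNA synthesis and exosome lists also divided there. In heart 11 of 18 rRNA processing genes lay below 0, with a median of -0.02.

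Of the noncoding host genes listed, 7 were measured on each platform, but not the same 7. Gas5, Rian and Meg3 were measured in liver and quadriceps only, and Snhg6, Snhg9 and Snhg18 in heart and gastrocnemius only. Of all those measured, only Snhg6 was the enclosing gene of a member (Snord87). In liver 6 of 7 lay above 0 (median 0.18), Gas5 (-0.23) being the one below. In quadriceps 5 of 7 lay above 0 (median 0.02), in heart 3 of 7 (median -0.002) and in gastrocnemius 4 of 7 (median 0.015). Of the snoRNA groups by locus, the Rpl13a group was represented by Snord35a alone (1 of 4 listed), the rRNA-processing snoRNAs by 3 of 6 (Snord118, Snora73a and Snora73b), and the Gas5, Snhg1 and imprinted groups by none under the rule of a single symbol per probe set in both tables. The list gives Snord14 as a bare symbol, so the member Snord14e, of the same U14 family, is not in the count of 3. Snora73a and Snora73b, near-identical copies that can share probes, had -0.10 and -0.11 in liver, -0.20 and -0.003 in quadriceps, 0.19 and 0.14 in heart, and -0.10 and -0.06 in gastrocnemius.

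Other short noncoding RNAs were compared. The list of 7 held the RNAs of RNase MRP (Rmrp), RNase P (Rpph1) and telomerase (Terc), Rn7sk, the Y RNAs Rny1 and Rny3 and the vault RNA Vaultrc5. All 7 lay above 0 in heart (median 0.18) and all 7 below 0 in gastrocnemius (median -0.23), whereas in liver 5 of 7 lay above 0. Rmrp, which cuts the rRNA precursor, passed the adjusted threshold for the difference between heart and gastrocnemius (0.64, SE 0.12, limma adjusted p = 0.0346). The median of microRNA genes was 0.10 over 291 genes in liver, and 0.02 in heart and 0.05 in gastrocnemius over 597. The snoRNA genes found in 1 table only had 18 of 20 below 0 in liver (median -0.18), 22 of 34 above 0 in heart (0.05) and 21 of 34 below 0 in gastrocnemius (-0.05). Of all genes, 45.6% lay below 0 in liver, 56.6% above 0 in heart and 44.2% below 0 in gastrocnemius. In heart and gastrocnemius the medians of these genes were smaller in size than those of the members.

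Between tissues of young mice, liver stood above quadriceps for most snoRNA genes. At 6 months 29 of 34 were higher in liver and 1 was lower at an adjusted p of 0.05, where 41.6% of all genes were higher and 28.1% lower. Snord104 read 12.80, 12.81 and 12.74 in liver and 9.98, 9.98 and 9.72 in quadriceps, a difference of 2.89 (SE 0.09, limma adjusted p = 2.73e-09) or 7.41-fold. Snora20 differed by 2.30, Snord118 by 2.27, Snord35a by 1.85 and Snord85 by 1.34, each without overlap. The gene that was lower in liver was Snord82 (difference -0.29, SE 0.10, limma adjusted p = 0.0270). That call was lost when any 1 of the 3 liver arrays or quadriceps replicate 1 was left out (adjusted p 0.0534 to 0.0707), with differences of -0.36 to -0.18 over the 6 arrays left out in turn.

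Between heart and gastrocnemius at 6 months, 6 of 34 members were higher in heart and 12 were lower, where 62.2% of all genes were higher and 15.2% lower. Scarna17 read 10.43, 10.42, 10.54 and 10.50 in heart and 9.20, 9.43, 9.49 and 9.31 in gastrocnemius, a difference of 1.11 (SE 0.07, limma adjusted p = 2.76e-07). Snord37 was also higher in heart, by 0.50. Snora75 (-0.99), Snora16a (-0.93) and Snord82 (-0.55) were lower in heart. The split depended on scaling, since the median of all genes was itself 0.27 higher in heart. With arrays centred on their median, which moved that median to -0.05, 2 members were higher and 22 lower, where 27.4% of all genes were higher and 38.7% lower. Quantile normalization gave 3 higher and 17 lower members, beside 31.1% and 33.3% of all genes, and cyclic loess 3 and 18, beside 32.3% and 32.4%. For liver against quadriceps the median of all genes moved from 0.10 to -0.02 with the same centring, and 28 members were higher in liver, where 34.4% of all genes were higher and 35.4% lower.

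**Figure D5:**
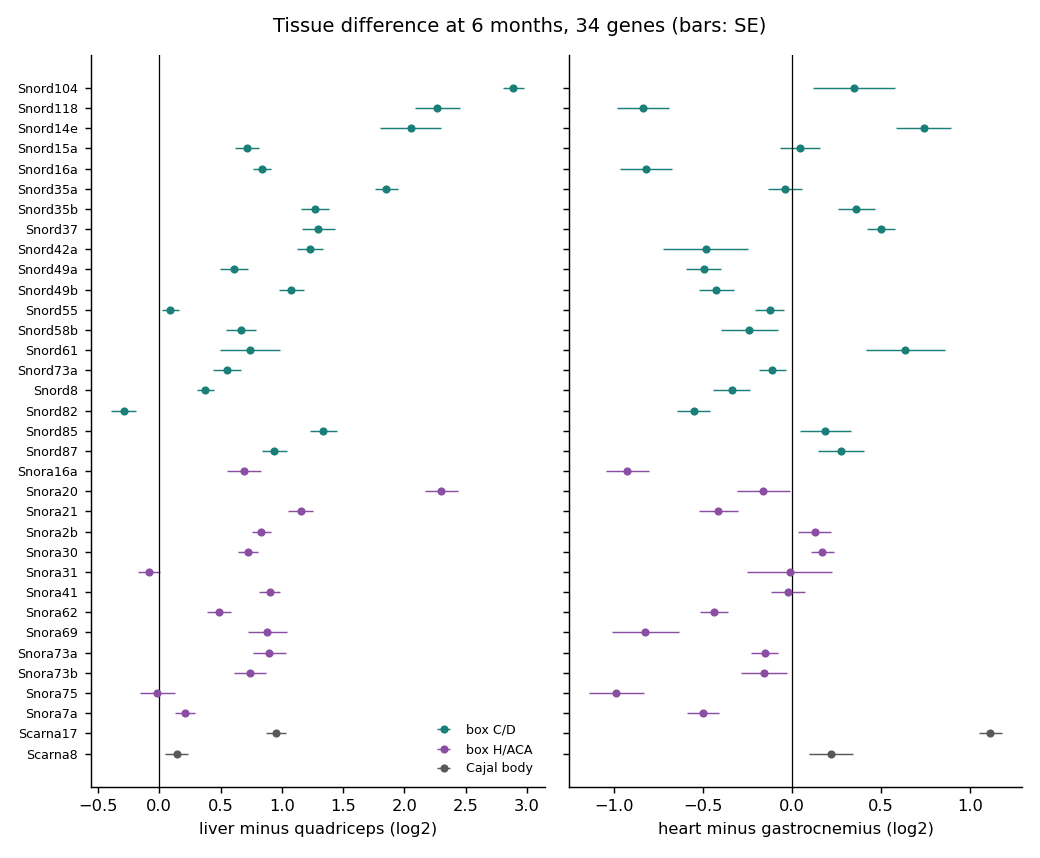
Tissue difference at 6 months (log2) of each of the 34 genes, liver minus quadriceps (left) and heart minus gastrocnemius (right); points are limma estimates, bars are standard errors, and colours mark the classes. Points lie mostly right of 0 for liver, with Snord104 the farthest at 2.89, and on both sides of 0 for heart.

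The probe set values of the members covered much of the range of the arrays. The 5 members of highest mean were Snord104, Snord82, Snord49b, Scarna17 and Snora7a on the liver and quadriceps platform, and Snord55, Snord49b, Scarna17, Snord61 and Snord16a on the heart and gastrocnemius platform. Values of different probe sets do not rank amounts of RNA. On the first platform 17 of 34 members lay above the median gene, and on the second 26 of 34. With genes left out where neither group reached the median of all values, 21 of 34 members remained in liver, 16 in quadriceps, 25 in heart and 26 in gastrocnemius. Snord118 had 2 probe sets on the second platform that differed by up to 3.92 (log2) on an array, so its heart and gastrocnemius values are uncertain. The other members with 2 probe sets on a platform had gaps of at most 0.34. On the second platform the probe sets of Snord14e and Snora73a have identifiers that mark them as unmapped.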

How the data were processed

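RNA was isolated with Trizol, purified on silica columns (RNeasy Mini) and amplified with a whole-transcript expression kit before hybridisation, per the labels' protocols; columns of this kind recover very short RNA less well, and an array probe set can also read the unspliced precursor of an intronic snoRNA. The authors deposited log2 expression values per probe set, made with RMA (version not given) per the submitters' processing notes, in a table for each platform, without a statement of which arrays RMA took together. Symbols came from the platform annotation: 21797 probe sets of the liver and quadriceps table and 30604 of the heart and gastrocnemius table had 1 symbol, giving 19928 and 30063 genes, and probe sets with several symbols (1613 and 2146) or none were left out. Outdated symbols of 23 and 1135 probe sets were updated through RefSeq.

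Age was tested per tissue with limma 3.58.1 (lmFit and eBayes, R 4.3.3) on the deposited log2 values over all genes, two-sided, with Benjamini-Hochberg adjustment and a threshold of 0.05. Tissue differences in the age effect used the tissue by age interaction within a table, and tissues were also compared at 6 months. The fits were tested on simulated data. Of 100 genes changed by 1, 93 to 100 were recovered per comparison. Of 100 changed by 0.3, 10 were recovered in liver, 13 in quadriceps, 41 in heart and 27 in gastrocnemius. It was 3 and 6 for the age differences of liver minus quadriceps and heart minus gastrocnemius, and 18 and 55 for the same contrasts at 6 months. A count of 0 called therefore does not exclude differences of that size. Alternatives were quantile normalization, median centring, cyclic loess, a filter on dim genes, testing of every probe set, a robust prior with an intensity trend, array weights, a replicate block, a joint fit, and each array left out in turn.

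The members and lists were chosen with earlier results of these data known. Named genes were, per age comparison, all members past the threshold (at most 12) filled by smallest p to 4 box C/D, 4 box H/ACA and 1 Scarna gene; per tissue difference and 6-month contrast the 5 of smallest p; per table the 5 of highest mean; the locus groups, pathway list members past the threshold, and the enclosing genes of named members. Some enclosing genes are not reported here. Others named in the text (Snord37, Snord73a, Snord8, Snora31 and list genes below the threshold among them) were chosen after their values were seen. A planned search of snoRNA sequences for box C letters was not run, as no snoRNA sequence was used here. Promoter windows came from RefSeq (GRCm38.p6). No 2 arrays of a group were duplicates: at most 4.26% of genes had the same deposited value in both.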

Additional observations from a re-analysis of the deposited data

Results flagged for a closer look

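In 3 box C/D genes the age difference differed between heart and gastrocnemius by the interaction test (limma, adjusted over all genes): Snord55 by 0.70 (adjusted p = 0.0311), Snord49b by 0.60 (adjusted p = 0.0412) and Snord49a by 0.71 (adjusted p = 0.0453), each with heart higher. Their part in the set was chosen with earlier results known, and the calls end under several alternatives given in the text.

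Single arrays stood apart from the other 3 of their group in 4 of 36 groups of 4 arrays tested, where chance alone flags about 1 in 20. Snord55 read 10.68 in 24-month heart replicate 4, below the other 3 (10.87 to 10.90). It also read 10 in 24-month gastrocnemius replicate 4, below the others (10.33 to 10.38). Snord49a read 9.0 in 24-month heart replicate 1, above the others (8.75 to 8.79). Snord35b read 5.74 in 6-month gastrocnemius replicate 1, below the others (6.16 to 6.22).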

How the results depend on the processing

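Of the 56 differences of members named by the rule, 55 kept their direction under every alternative run; Scarna8 in quadriceps turned to -0.012 without 6-month replicate 3 and to -0.063 without 24-month replicate 1, and ran up to 0.182 without another array. Counts of members called with age were 0 in quadriceps and heart under every alternative. In liver the count of 0 became 8 with median centring, 7 of 21 members with dim genes left out, 6 with the intensity trend, 15 with array weights and 10 in the joint fit, all lower at 24 months, and 0 to 12 with 1 array left out; the same settings called 9.84%, 17.0%, 11.3%, 39.6% and 18.2% of all genes, against 0.326% as reported. In gastrocnemius it became 6 in the joint fit, where 2.76% of all genes were called, and was 0 with 1 array left out. For liver minus quadriceps it was 2 of 22 with dim genes left out, 1 with the trend, 8 with array weights (1.72%, 0.798% and 12.7% of all genes), and 0 to 9 with 1 array left out. For heart minus gastrocnemius the count of 3 became 0 with quantile normalization and with cyclic loess, 1 with median centring, 6 of 26 with dim genes left out (2.85% of all genes), 7 with array weights (2.46%), and 0 to 8 with 1 array left out. The cause of these moves was not tested. Total counts at 6 months were within 1.5 times the reported ones, but the split by direction moved with scaling for heart minus gastrocnemius, and the 1 lower call for liver minus quadriceps was lost in 4 of 6 fits with 1 array left out and rose to 3 under quantile normalization and to 2 under cyclic loess.

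Deviations of same-numbered arrays of the 2 ages correlated at -0.22 to 0.30, and in no tissue did every pair exceed 0.1, so the number was not taken as a pairing; the deviation of an array correlated best with its own number in 4 of 6 liver, 2 of 6 quadriceps, 0 of 8 heart and 6 of 8 gastrocnemius arrays. With the replicate block the counts were 0 in each tissue and for liver minus quadriceps, 3 for heart minus gastrocnemius, and 30 and 19 at 6 months; members at an unadjusted p under 0.05 in heart went from 7 to 14. The number of arrays, 3 or 4 a group, limits the precision of each difference.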
